A study of Homo sapiens with 6 samples.

Results

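The genes described here are 41 genes of the HSP90, HSP70, J-domain and chaperonin systems, chosen by symbol from 18701 genes with at least 1 probe set carrying only that symbol. The list holds 2 HSP90 genes, 6 HSP90 cochaperones, 7 HSP70 genes, 3 HSP110 genes, 8 J-domain genes, 4 genes of the BAG and STUB1 group, the HSP60 and HSP10 genes, 7 subunits of the CCT chaperonin and 2 heat shock factors. All 41 passed the filter on low signal, with mean log2 signals of 4.25 to 11.9 and 4 to 24 probe sets per gene. The cells were HT29-tsp53, a derivative of the colorectal adenocarcinoma line HT-29 with a murine V135A p53 transgene, whose product is active at 32 °C and inactive at a higher, restrictive temperature. HT-29 cells are also known to carry a mutant p53 gene of their own. Every group carried the transgene, and its promoter and whether the line is a single clone are not given in the labels. In the p53 on then off group the cells spent 16 h at 32 °C and then 6 h of recovery. In the p53 on group they spent 16 h at 32 °C. In the p53 off group they stayed at the restrictive temperature, labelled 38 °C. Other label fields give a slightly lower restrictive temperature, and among the recovery labels 1 field has 32 °C for the last 6 h where others have a return to 38 °C. Transcripts were measured with Affymetrix Human Gene 1.0 ST arrays, 2 per group, from experiments numbered 1 and 2. The labels do not say that the experiments were separate cultures, so p-values measure only the spread between these samples. Temperature and p53 activity changed together in both shifts, and with no array of cells without the transgene the effects of the 2 cannot be told apart.

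HSP90 and HSP70 are ATP-driven chaperones that bind unfolded or unstable proteins. J-domain proteins deliver substrates to HSP70 and stimulate its ATPase, HSP110 proteins and BAG proteins exchange its nucleotide, and cochaperones such as STIP1, AHSA1 and the FKBP immunophilins move clients through the HSP90 cycle. The chaperonins, HSP60 with its HSP10 lid in mitochondria and CCT in the cytosol, fold proteins inside a closed chamber. Heat shock factor 1, encoded by HSF1, activates many of these genes at heat shock elements, which are repeats of the 5-base unit NGAAN in alternating orientation. Mutant p53 is a well-known HSP90 client.

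The arrays followed their labels. MDM2, a p53 target encoding the ubiquitin ligase that degrades p53, had log2 signals of 7.60 and 7.40 in p53 on then off cells, 10.97 and 10.89 in p53 on cells, and 7.51 and 7.31 in p53 off cells. The list of 10 colon epithelium markers had a mean log2 signal of 8.60 to 9.37 per array, and none of its genes lay under the low-signal limit of 3.62. It averaged 9.37 and 8.98 in p53 on cells and 9.13 and 8.60 in p53 off cells. Its part in the chaperone results was not tested. The 6 fibroblast markers averaged 3.67 to 3.91, near that limit, with 2 of them under it. Of the leukocyte markers, 5 were measured and 2 lay under the limit. Their mean of 5.18 to 5.59 rested on LYZ, the lysozyme gene, with signals of 11.52 and 11.06 in p53 on cells. Array medians over probe sets were 5.24 to 5.31, and over the gene values used in the tests 5.78 to 5.94.

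Promoter sequence was available for 37 of the 41 genes, as RefSeq windows from 250 bases before to 50 bases after a transcription start on GRCh38.p14. FKBP4, HSPA14, STUB1 and HSF1 were the others. The windows were searched for GAANNTTC and TTCNNGAA, each holding 2 units of the heat shock element, and for GAANNTTCNNGAA and TTCNNGAANNTTC, each holding 3 units. Every 3-unit match also contains 2-unit matches, and the 2-unit patterns read the same on both strands. A 2-unit match was present in 17 of the 37 chaperone genes (45.9%) and a 3-unit match in 7 (18.9%), against 16.2% and 0.608% of 27305 genes with a window. The 7 genes with a 3-unit match were HSP90AA1, HSP90AB1, CHORDC1, HSPA8, DNAJA1, DNAJB6 and HSPD1. Of these, 5 stretches are shown because the comparisons turn on HSP90AA1 and CHORDC1, on HSP90AB1 beside HSP90AA1, on DNAJB6, and on HSPE1, the neighbour of HSPD1. They run 5′ to 3′ on the gene's own strand, with the 3-unit runs in capitals.
HSP90AA1: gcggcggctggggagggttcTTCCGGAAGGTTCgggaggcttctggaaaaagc
HSP90AB1: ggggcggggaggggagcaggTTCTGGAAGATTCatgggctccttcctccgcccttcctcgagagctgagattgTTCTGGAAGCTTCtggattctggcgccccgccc
CHORDC1: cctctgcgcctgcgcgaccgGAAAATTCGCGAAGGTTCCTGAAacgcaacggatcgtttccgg
DNAJB6: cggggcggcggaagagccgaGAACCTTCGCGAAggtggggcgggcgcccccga
HSPD1: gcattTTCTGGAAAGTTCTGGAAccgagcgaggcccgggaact
The HSP90AA1 stretch lies at chr14:102087100-102087152 on the minus strand, with its run beginning 88 bases before the start. The HSP90AB1 stretch, at chr6:44247758-44247863 on the plus strand, holds separate runs 165 and 112 bases before the start. In CHORDC1, at chr11:90223067-90223129 on the minus strand, the units form an unbroken run of 23 bases that begins 60 bases before the start. The DNAJB6 run, at chr7:157336853-157336905 on the plus strand, begins 131 bases before the start. HSPD1, at chr2:197500048-197500090 on the minus strand, holds a run of 18 bases that begins 245 bases before the HSPD1 start farther from HSPE1. The same run lies downstream of the HSPD1 start nearer to HSPE1, which is at base 197500274. HSPD1 and HSPE1 are divergently transcribed neighbours, with the HSPE1 start 105 and 539 bases from the HSPD1 starts. These matches are letters in a window and not measured binding sites.

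**Figure D1:**
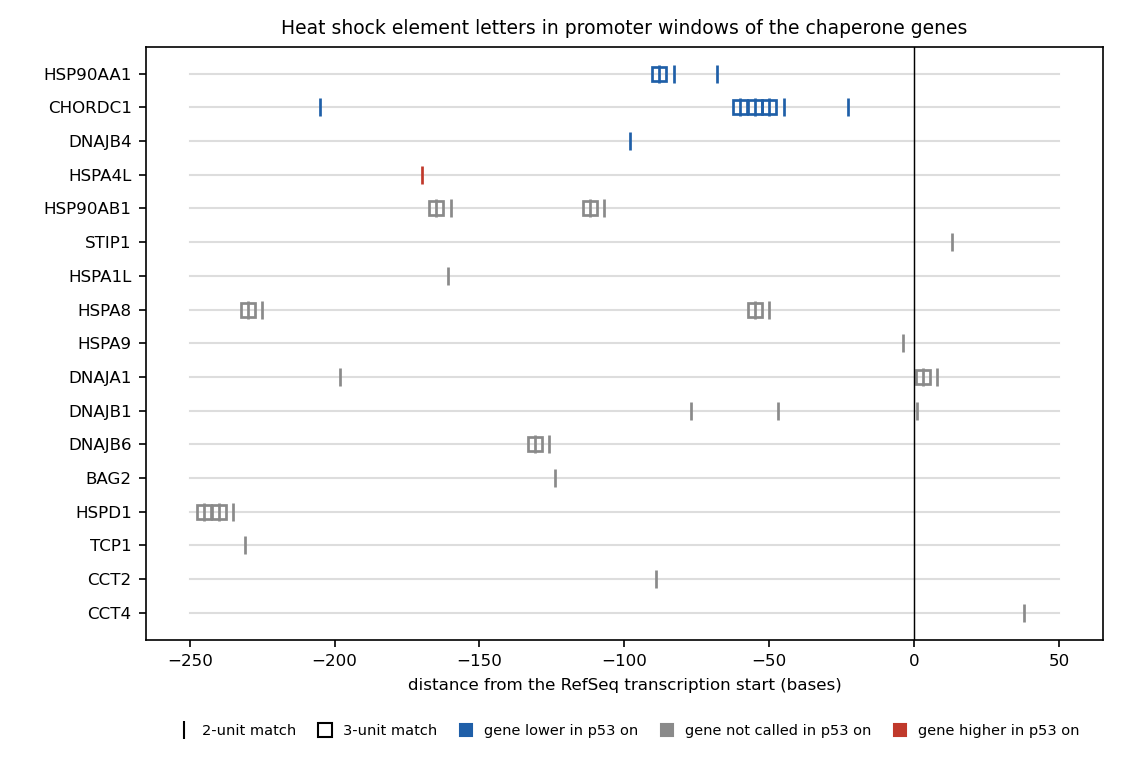
Positions of heat shock element letters in promoter windows (x axis, bases from the RefSeq transcription start, negative values before it), for the 17 chaperone genes with a match. Ticks are 2-unit matches and squares 3-unit matches, blue for genes with lower signal in p53 on than in p53 off cells, red for a gene with higher signal and grey for genes past the test in neither direction. Squares appear both in blue (HSP90AA1, CHORDC1) and in grey (HSP90AB1, HSPA8, DNAJA1, DNAJB6, HSPD1).

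The first comparison asked how 16 h at 32 °C with active p53 changed chaperone transcripts, setting p53 on against p53 off cells. In p53 on cells 8 of the 41 chaperone genes fell and 1 rose. CHORDC1, HSPH1 and FKBP4 fell by 1.56, 1.34 and 1.26 on the log2 scale, and AHSA1, HSP90AA1, DNAJB4, FKBP5 and HSPE1 by 0.82 to 0.94. The 1 gene that rose was HSPA4L, an HSP110 chaperone, by 0.76. In bulk RNA, fewer cells with a transcript and less of it per cell cannot be told apart. The threshold was an adjusted p under 0.05 from limma (Benjamini-Hochberg over 14026 genes), with the experiment number as a block and no minimum fold. The 8 genes that fell were 19.5% of the list, against 6.28% of all genes tested, and the 1 that rose was 2.44%, against 5.18%. The median difference over the list was -0.19, with 28 genes below 0 and 13 above, beside a median of 0.02 and 48.0% below 0 over all genes tested. Both p53 on arrays lay below both p53 off arrays in 16 of the 41 genes (20.6% of all genes tested) and above them in 5 (22.6%). An unadjusted p under 0.05 was reached by 18 of the 41 (26.7% of all genes). Without the block, 1 gene fell (FKBP4, where 0.585% of all genes passed) and 0 rose (where 0.898% passed), with 12 at an unadjusted p under 0.05 (15.4% of all genes).

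Within the HSP90 pair, the inducible and the constitutive gene differed in their values. HSP90AA1, the stress-inducible cytosolic HSP90, had log2 signals of 10.21 and 9.62 in p53 on cells, against 11.08 and 10.60 in p53 off cells. Both p53 on arrays were below both p53 off arrays, and 8 of 10 HSP90AA1 probe sets were lower in both experiments, with 1 higher. The difference of -0.93 ± 0.18 (SE, n = 2 arrays per group) was a 1.90-fold fall, with an adjusted p of 0.0139 from limma. HSP90AB1, the constitutive cytosolic HSP90, had signals of 11.43 and 11.19 in p53 on cells, against 11.44 and 11.03 in p53 off cells. Its groups overlapped, and the difference of 0.08 had a 95% interval of -0.33 to 0.49 (adjusted p = 0.832 from limma). Whether the 2 genes differ from each other in their change was not tested. Both carry the 3-unit element letters shown above.

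Of the 6 HSP90 cochaperones, 4 fell. CHORDC1, a zinc-binding HSP90 partner, had signals of 7.14 and 6.34 in p53 on cells, against 8.58 and 8.03 in p53 off cells. This 2.96-fold fall (-1.56 ± 0.17, adjusted p = 0.00148 from limma) was the largest among the 41 genes, and all 6 of its probe sets were lower in both experiments. Counts of probe sets describe a gene whose value is their median and are no further support for it. FKBP4, the FKBP52 immunophilin of steroid receptor complexes, had 8.31 and 8.47 in p53 on cells, against 9.63 and 9.67 in p53 off cells (-1.26 ± 0.17, adjusted p = 0.00389). FKBP5, the related FKBP51, had 6.61 and 6.76 in p53 on cells, against 7.14 and 7.93 in p53 off cells. For both immunophilins the groups were apart, but the fall of FKBP5 was 0.52 in experiment 1 and 1.17 in experiment 2 (-0.84 ± 0.20 in the fit, adjusted p = 0.0313). AHSA1, the activator of the HSP90 ATPase, had 8.18 and 7.44 in p53 on cells, against 8.94 and 8.56 in p53 off cells. All 10 probe sets of AHSA1 were lower in both experiments (-0.94 ± 0.18, adjusted p = 0.0137). FKBP4 and FKBP5 were less uniform, with 8 of 10 and 12 of 14 probe sets lower in both experiments and 1 of FKBP5 higher. STIP1, the adaptor between HSP70 and HSP90, differed by -0.54 ± 0.17 and did not pass the test (adjusted p = 0.0798). CDC37, the cochaperone for protein kinases, differed by 0.10 ± 0.17 (adjusted p = 0.771).

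The HSP110 genes, whose products are nucleotide exchange factors of HSP70, went in different directions. HSPH1 had signals of 9.60 and 9.06 in p53 on cells, against 11 and 10.33 in p53 off cells. Both p53 on arrays lay below both p53 off arrays, a 2.53-fold fall (-1.34 ± 0.17, adjusted p = 0.00269 from limma). HSPA4L had 9.45 and 9.11 in p53 on cells, against 8.54 and 8.50 in p53 off cells. The p53 on arrays were the higher ones here, by 0.76 ± 0.18 (adjusted p = 0.0297), and 20 of 20 probe sets of HSPA4L were higher in both experiments, while 21 of 22 probe sets of HSPH1 were lower. HSPA4 differed by -0.01, with a 95% interval of -0.39 to 0.38.

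None of the 7 HSP70 genes passed the test in this comparison. HSPA8, the constitutive cytosolic HSC70, had signals of 11.86 and 11.47 in p53 on cells, against 12.25 and 11.54 in p53 off cells. Its groups overlapped, with a difference of -0.23 ± 0.21 (adjusted p = 0.529 from limma). HSPA1L, a relative of the inducible HSP70 genes that is known from testis, came nearest to the threshold, at -0.64 ± 0.18 (adjusted p = 0.0551). Its sequence is close to that of HSPA1A and HSPA1B, so its probe sets may not tell these genes apart. HSPA9, the mitochondrial HSP70, differed by -0.10. HSPA2, a testis-enriched HSP70, differed by 0.09, and HSPA12A, a distant relative, by 0.28. HSPA13, a microsomal HSP70, differed by 0.31 and HSPA14, a partner of the ribosome-associated J protein, by -0.19. HSPA13 was 0.63 higher in experiment 1 and 0.01 lower in experiment 2.

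Of the 8 J-domain genes, DNAJB4 alone passed the test. It had signals of 6.01 and 5.59 in p53 on cells, against 6.57 and 6.74 in p53 off cells. The groups did not overlap, and DNAJB4 fell by 0.55 in experiment 1 and by 1.15 in experiment 2 (-0.85 ± 0.20, adjusted p = 0.0272 from limma). Of its 4 probe sets, 3 were lower in both experiments. The mitochondrial J protein DNAJA3 differed by -0.57 (adjusted p = 0.0692) and the cytosolic DNAJA1 by -0.47 (adjusted p = 0.131). DNAJB1, the J protein best known from the heat shock response, differed by -0.27 (adjusted p = 0.348). DNAJB6, a suppressor of protein aggregation, differed by -0.24, and DNAJA2 by 0.00. DNAJB5 differed by 0.55 (adjusted p = 0.0955) and DNAJB2, known for a neuron-enriched form, by 0.46 (adjusted p = 0.136). In the BAG and STUB1 group, BAG2, an inhibitor of the ubiquitin ligase STUB1, differed by -0.58 (adjusted p = 0.0641) and BAG3, a factor of selective autophagy, by -0.43 (adjusted p = 0.147). STUB1 itself differed by -0.02. BAG1 was 0.79 higher in experiment 1 and 0.43 lower in experiment 2.

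Among the chaperonins, HSPE1, the HSP10 lid of HSP60, had signals of 5.27 and 4.11 in p53 on cells, against 6.01 and 5.01 in p53 off cells. The groups overlapped across experiments, while within each experiment the p53 on array was lower, by 0.74 and 0.90. In the fit HSPE1 fell by 0.82 ± 0.19 (adjusted p = 0.0276 from limma), and all 4 of its probe sets were lower in both experiments. HSPD1, the HSP60 gene that shares the divergent promoter with HSPE1, differed by -0.33, with a 95% interval of -0.72 to 0.06 (adjusted p = 0.261). The 7 CCT subunit genes had differences of -0.60 to 0.09, with a median of -0.06, and none passed the test. CCT4 was the one at -0.60 (adjusted p = 0.0877), and the adjusted p of the other CCT genes, TCP1, CCT2, CCT3, CCT5, CCT7 and CCT8, lay between 0.433 and 0.965. HSF1 had signals of 7.08 and 7.04 in p53 on cells, against 7.14 and 7.19 in p53 off cells, a difference of -0.10 with a 95% interval of -0.49 to 0.28. HSF2 had 6.03 and 5.85 in p53 on cells, against 5.66 and 5.55 in p53 off cells. For HSF2 the groups did not overlap, but the difference of 0.33 ± 0.17 did not pass the test (adjusted p = 0.245).

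The heat shock element letters occurred among genes that fell and genes that did not. Of the 8 genes that fell, 7 had a promoter window. A 3-unit match was present in 2 of the 7 (28.6%, HSP90AA1 and CHORDC1), against 5 of 29 genes that did not pass the test (17.2%), among them HSP90AB1 and HSPA8. A 2-unit match was present in 3 of the 7 (42.9%), against 13 of the 29 (44.8%). The windows of HSPH1, AHSA1, FKBP5 and HSPE1 held neither motif. For HSPE1 this depended on the window, because the HSPD1 run lies between the farther HSPD1 start and the HSPE1 start. That run is more than 250 bases before the HSPE1 start and so outside the HSPE1 window. Several of the genes overlap a neighbour in the RefSeq annotation. Among the 8 these were HSP90AA1 (with WDR20), FKBP4, DNAJB4 (with FUBP1) and HSPE1 (with HSPE1-MOB4). Which of these neighbours share a strand, and whether any probe set reads both genes there, was not tested.

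**Figure D2:**
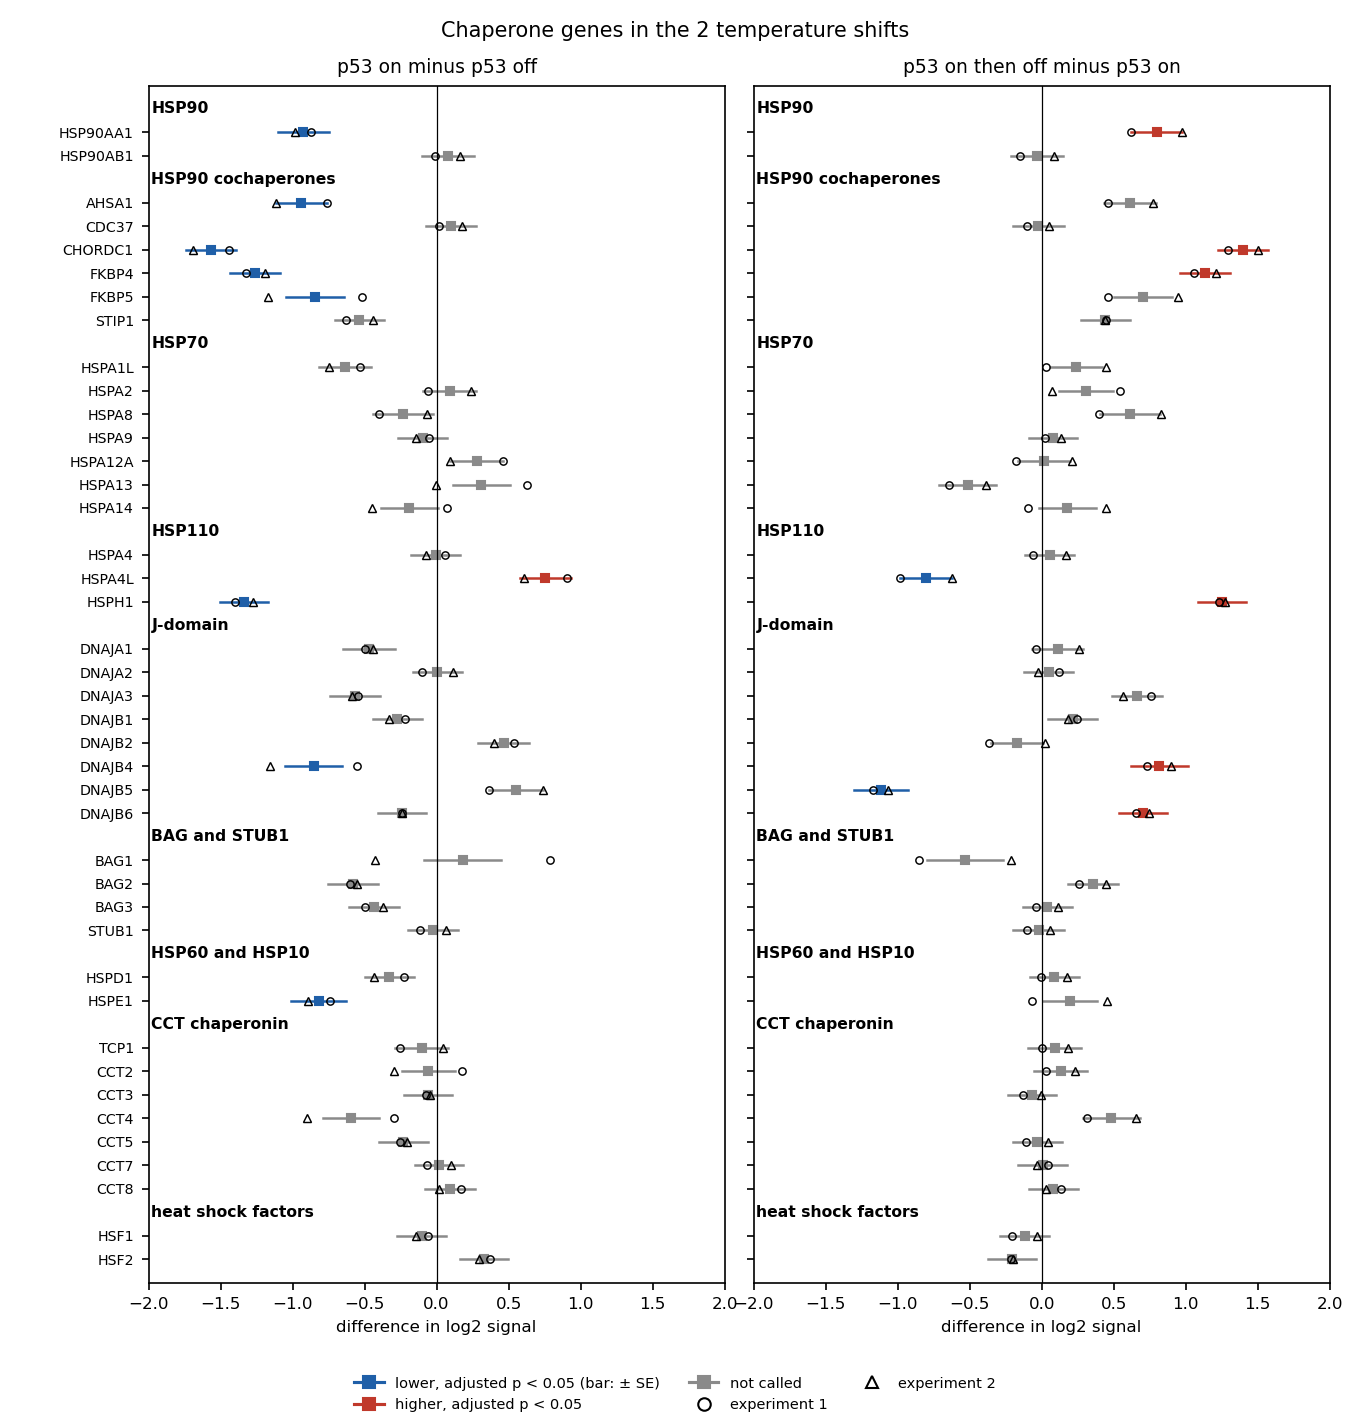
Differences in log2 signal (x axes) of the 41 chaperone genes by family, p53 on minus p53 off at left and p53 on then off minus p53 on at right. Squares with bars are limma estimates ± SE (n = 2 arrays per group), blue for lower and red for higher at an adjusted p under 0.05 and grey otherwise, while circles and triangles are the differences within experiments 1 and 2. CHORDC1 stands at -1.56 at left and 1.40 at right, HSPH1 at -1.34 and 1.25, and HSPA4L at 0.76 and -0.80. Both panels use the p53 on arrays.

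The calls rested unequally on the arrays. CHORDC1, FKBP4 and HSPH1 remained called when any 1 of the 6 arrays was left out, whereas the count of 9 became 4 without p53 on array 2 (HSP90AA1, AHSA1, FKBP5, DNAJB4 and HSPE1 lost), 6 without p53 off array 1 (HSP90AA1, HSPA4L and HSPE1 lost), 3 without p53 off array 2, and 8 without p53 on array 1 (HSPA4L lost, 0.59, adjusted p = 0.135 from limma). Over all genes, where 881 were lower and 726 higher, calls dropped too, to 413 lower and 470 higher without p53 on array 2, 618 and 477 without p53 off array 1, 265 and 348 without p53 off array 2, and 745 and 478 without p53 on array 1. HSP90AA1 stood at -0.81 (adjusted p = 0.0714), -0.89 (adjusted p = 0.0559) and -0.96 (adjusted p = 0.0615) without p53 on array 2, p53 off array 1 and p53 off array 2, and FKBP5 at -0.56 (adjusted p = 0.198) without p53 on array 2.

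Other genes of the same pathways, 65 tested of 78 listed, were read beside the 41. In p53 on cells 6 of the 65 fell (9.23%) and 1 rose (1.54%), with a median difference of -0.09, beside 6.28%, 5.18% and a median of 0.02 over all genes tested. The share that fell was thus near the share over all genes. Of the falls, 4 were among 21 tested genes in a list of HSP90 and HSP70 partners, which also held further HSP70 genes such as HSPA1B. PPID, the cyclophilin 40 partner of HSP90, had signals of 6.19 and 3.86 in p53 on cells, against 7.45 and 6.66 in p53 off cells (-2.03 ± 0.33, adjusted p = 0.00702 from limma). It fell by 1.25 in experiment 1 and by 2.80 in experiment 2, where its p53 on signal of 3.86 lay near the low-signal limit of 3.62. DNAJA4, a cytosolic J protein, had 6.34 and 6.91 in p53 on cells, against 7.56 and 7.98 in p53 off cells (-1.15 ± 0.18, adjusted p = 0.00644). HSPA1B, the inducible HSP70 measured by 1 probe set and near-identical to HSPA1A, had 7.70 and 7.31 in p53 on cells, against 8.83 and 8.003 in p53 off cells (-0.91 ± 0.21, adjusted p = 0.0298). The other falls, named after their values were seen, were PTGES3 (the p23 cochaperone, -0.73), SUGT1 (an HSP90 adaptor, -0.69) and PFDN6 (a prefoldin subunit, -0.66). DNAJC18, a J-domain gene, rose, with 7.25 and 5.97 in p53 on cells, against 4.94 and 5.07 in p53 off cells (1.60 ± 0.31, adjusted p = 0.0137). Without the block none of the 65 passed the test.

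The second comparison set p53 on then off cells against p53 on cells, to ask what 6 h of recovery did. In p53 on then off cells 6 of the 41 genes rose and 2 fell. CHORDC1, HSPH1 and FKBP4 rose by 1.40, 1.25 and 1.14, and DNAJB4, HSP90AA1 and DNAJB6 by 0.70 to 0.82. DNAJB5 and HSPA4L fell by 1.12 and 0.80. The rises were 14.6% of the list, against 3.84% of all genes tested, and the falls 4.88%, against 3.39%. The median difference over the list was 0.09, with 29 genes above 0 and 12 below, beside 0.02 over all genes. The p53 on arrays serve in this comparison and in the first one, so the values of a gene in the 2 are not independent. Both recovery arrays lay above both p53 on arrays in 13 of the 41 genes (21.3% of all genes tested) and below them in 5 (18.3%). An unadjusted p under 0.05 was reached by 15 of the 41 (22.2% of all genes). Without the block 0 genes rose (where 0.143% of all genes passed) and 0 fell (where 0.285% passed) in the limma test, with 9 of the 41 at an unadjusted p under 0.05 (12.3% of all genes).

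Recovery values of HSP90AA1 were 10.84 and 10.60 in p53 on then off cells, against 10.21 and 9.62 in p53 on cells (0.80 ± 0.18, adjusted p = 0.0327 from limma). Both recovery arrays were above both p53 on arrays, by 0.62 in experiment 1 and 0.97 in experiment 2. HSP90AB1 had 11.27 and 11.28 in p53 on then off cells, against 11.43 and 11.19 in p53 on cells, with overlapping groups and a difference of -0.03 (adjusted p = 0.949). Among the cochaperones, CHORDC1 stood at 8.43 and 7.84 in p53 on then off cells, against 7.14 and 6.34 in p53 on cells. Its 2.64-fold rise (adjusted p = 0.00434) was the largest of the list, and 6 of its 6 probe sets were higher in both experiments. FKBP4 had 9.36 and 9.69 in p53 on then off cells, against 8.31 and 8.47 in p53 on cells (2.20-fold, adjusted p = 0.00879). AHSA1 and FKBP5, which fell in p53 on cells, had recovery differences of 0.61 ± 0.18 (adjusted p = 0.0779) and 0.70 ± 0.20 (adjusted p = 0.0756), short of the threshold. The AHSA1 signals were 8.64 and 8.21 in p53 on then off cells, against 8.18 and 7.44 in p53 on cells. FKBP5 stood at 7.07 and 7.70 in p53 on then off cells, against 6.61 and 6.76 in p53 on cells. In both genes every recovery array lay above every p53 on array. STIP1 differed by 0.44 (adjusted p = 0.167) and CDC37 by -0.02.

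HSPH1 had signals of 10.83 and 10.33 in p53 on then off cells, against 9.60 and 9.06 in p53 on cells (1.25 ± 0.17, adjusted p = 0.00592 from limma). HSPA4L had 8.46 and 8.48 in p53 on then off cells, against 9.45 and 9.11 in p53 on cells (-0.80 ± 0.18, adjusted p = 0.0329). The recovery arrays were thus the high ones for HSPH1 and the low ones for HSPA4L, with no overlap in either gene, and all 20 probe sets of HSPA4L were lower in both experiments. HSPA8 had 12.25 and 12.30 in p53 on then off cells, against 11.86 and 11.47 in p53 on cells. Its recovery arrays were both higher, but the difference of 0.61 ± 0.21 did not pass the test (adjusted p = 0.127).

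Of the J-domain genes, 3 passed the test during recovery. DNAJB4 had signals of 6.75 and 6.49 in p53 on then off cells, against 6.01 and 5.59 in p53 on cells (0.82 ± 0.20, adjusted p = 0.0423 from limma). DNAJB6 had 7.80 and 7.68 in p53 on then off cells, against 7.14 and 6.93 in p53 on cells (0.70 ± 0.17, adjusted p = 0.0414). DNAJB5 had 4.54 and 4.64 in p53 on then off cells, against 5.71 and 5.71 in p53 on cells (-1.12 ± 0.19, adjusted p = 0.012). In none of the 3 did the groups overlap. Of the probe sets, 3 of 4 for DNAJB4 and 3 of 5 for DNAJB6 were higher in both experiments, and 7 of 10 for DNAJB5 were lower. DNAJB6, which carries the 3-unit letters printed above, and DNAJB5 had not passed the test between p53 on and p53 off cells. With the mean of probe sets as the gene value, both genes passed that test, and DNAJB6 did not pass during recovery. Whether the 2 differences of either gene differ from each other was not tested. DNAJA3 came closest among the remaining genes, at 0.66 ± 0.17 (adjusted p = 0.054). HSPE1 had 5.21 and 4.57 in p53 on then off cells, against 5.27 and 4.11 in p53 on cells. Its recovery array was lower by 0.06 in experiment 1 and higher by 0.46 in experiment 2, and the difference of 0.20 had a 95% interval of -0.23 to 0.63. The CCT genes had differences of -0.07 to 0.48, with adjusted p of 0.186 to 0.988. HSF1 had 6.87 and 7.01 in p53 on then off cells, against 7.08 and 7.04 in p53 on cells, a difference of -0.12 with a 95% interval of -0.50 to 0.27. HSF2 had 5.81 and 5.64 in p53 on then off cells, against 6.03 and 5.85 in p53 on cells, a difference of -0.21 (-0.59 to 0.17).

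**Figure D3:**
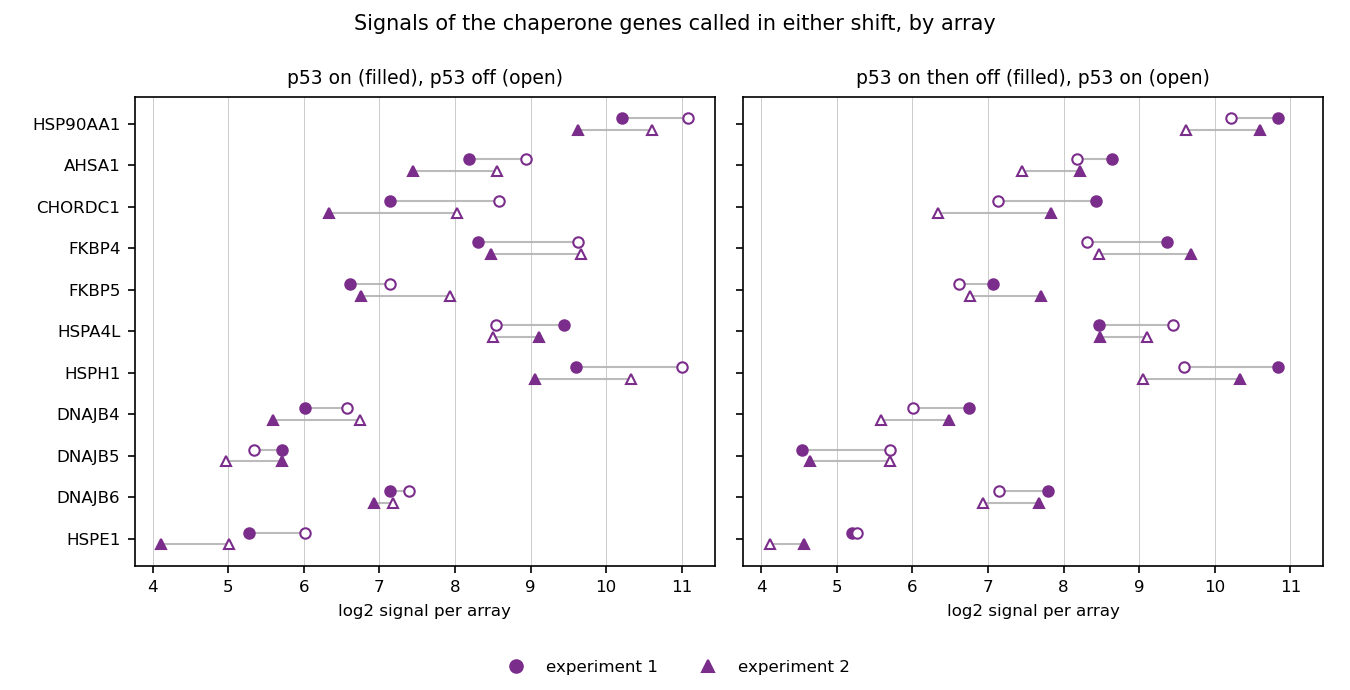
Log2 signal per array (x axes) of the 11 chaperone genes that passed the test in the first or second comparison. At left p53 on arrays are filled and p53 off arrays open, at right p53 on then off arrays are filled and p53 on arrays open, with experiment 1 as circles and experiment 2 as triangles, joined within each experiment. The p53 on marks of HSPH1 (9.60 and 9.06) lie left of the others in both panels, and those of HSPA4L (9.45 and 9.11) lie right.

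CHORDC1 and HSPH1 remained called in this comparison whichever array was left out. The count of 8 became 6 without p53 on array 1 (5 of the 8, with FKBP5 gained), 5 without p53 on array 2 and 3 without either recovery array. Over all genes, where 539 were higher and 476 lower, calls dropped too, to 477 higher and 276 lower when p53 on array 1 was left out, 229 and 292 when it was p53 on array 2, 198 and 214 without recovery array 1, and 194 and 207 without recovery array 2. HSP90AA1 and DNAJB6 were lost without any 1 of these 4 arrays (adjusted p of 0.0514 to 0.304 for HSP90AA1 and 0.0996 to 0.301 for DNAJB6, from limma), DNAJB4 without p53 on array 2 or a recovery array, HSPA4L without p53 on array 1 or a recovery array, DNAJB5 without recovery array 1 (-0.97, adjusted p = 0.0873) and FKBP4 without recovery array 2 (1.02, adjusted p = 0.0626).

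Of the 65 other pathway genes, 3 rose and 2 fell in p53 on then off cells relative to p53 on cells (4.62% and 3.08%), with a median difference of 0.11. Over all genes tested 3.84% rose and 3.39% fell, so these shares were near those of all genes, and the genes that follow are described singly. PPID had signals of 6.99 and 5.97 in p53 on then off cells, against 6.19 and 3.86 in p53 on cells (1.46 ± 0.33, adjusted p = 0.0345 from limma). DNAJA4 had 7.22 and 8.03 in p53 on then off cells, against 6.34 and 6.91 in p53 on cells (1.00 ± 0.18, adjusted p = 0.0152). HSPA1B had 8.41 and 8.39 in p53 on then off cells, against 7.70 and 7.31 in p53 on cells (0.89 ± 0.21, adjusted p = 0.0423). Both recovery arrays were above both p53 on arrays for DNAJA4 and HSPA1B, while for PPID the groups overlapped across experiments. The PPID signal of 3.86 lay near the low-signal limit of 3.62. DNAJC18 had 5.10 and 5.02 in p53 on then off cells, against 7.25 and 5.97 in p53 on cells (-1.55 ± 0.31, adjusted p = 0.0219). DNAJB12, a J protein of the endoplasmic reticulum membrane, had 5.88 and 6.12 in p53 on then off cells, against 6.81 and 6.92 in p53 on cells (-0.87 ± 0.17, adjusted p = 0.0209). Both fell without overlap between groups. Without the block none of these passed the test.

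The third comparison set p53 on then off cells against p53 off cells, both last held at the restrictive temperature by most label fields. None of the 41 genes passed the limma test in either direction (0 higher, against 0.207% of all genes tested, and 0 lower, against 0.392%), and 4 of the 41 were at an unadjusted p under 0.05, against 13% of all genes. The 4 were DNAJB5, DNAJB6, BAG3 and HSPE1. Differences ran from -0.62 to 0.46, with a median of -0.06, beside 0.03 over all genes tested. Recovery arrays lay above both p53 off arrays in 5 genes (20.4% of all genes tested) and below them in 7 (14.5%). Without the block 0 genes passed the limma test (0.0285% of all genes were higher and 0% lower), with 1 at an unadjusted p under 0.05 (5.32% of all genes).

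The genes that had fallen most in p53 on cells stood close to p53 off cells after recovery. CHORDC1 had signals of 8.43 and 7.84 in p53 on then off cells, against 8.58 and 8.03 in p53 off cells, a difference of -0.17 with a 95% interval of -0.56 to 0.23. HSPH1 had 10.83 and 10.33 in p53 on then off cells, against 11 and 10.33 in p53 off cells (-0.09, interval -0.47 to 0.30). FKBP4 had 9.36 and 9.69 in p53 on then off cells, against 9.63 and 9.67 in p53 off cells (-0.12, interval -0.52 to 0.27). In all 3 the groups overlapped, and the intervals leave room for a remaining change in either direction. HSP90AA1 had 10.84 and 10.60 in p53 on then off cells, against 11.08 and 10.60 in p53 off cells (-0.13, interval -0.53 to 0.28). HSPA4L differed by -0.05 (interval -0.45 to 0.36), DNAJB4 by -0.04, FKBP5 by -0.14 and AHSA1 by -0.32 (interval -0.73 to 0.08).

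Other genes of the list were farther from p53 off cells, without passing the test. HSPE1 stood at 5.21 and 4.57 in p53 on then off cells, against 6.01 and 5.01 in p53 off cells (-0.62 ± 0.19, adjusted p = 0.219 from limma). DNAJB5 had 4.54 and 4.64 in p53 on then off cells, against 5.34 and 4.97 in p53 off cells (-0.56 ± 0.19, adjusted p = 0.254). The recovery arrays of DNAJB5 were below both p53 off arrays, while those of HSPE1 overlapped across experiments. DNAJB6 had 7.80 and 7.68 in p53 on then off cells, against 7.38 and 7.17 in p53 off cells (0.46 ± 0.17, adjusted p = 0.299 from limma). The probe sets of these genes were divided. Of the 4 for HSPE1, 1 was lower in both experiments and 0 higher. Of the 10 for DNAJB5, 6 were lower and 2 higher, and of the 5 for DNAJB6, 2 were lower and 2 higher. HSPA8 had 12.25 and 12.30 in p53 on then off cells, against 12.25 and 11.54 in p53 off cells, equal in experiment 1 and 0.76 higher in experiment 2. BAG3 differed by -0.39 (adjusted p = 0.383). HSF1 differed by -0.22 (interval -0.61 to 0.16) and HSF2 by 0.12 (interval -0.26 to 0.50). The CCT genes had differences of -0.26 to 0.17. Of the 65 other pathway genes, 0 passed the test in either direction.

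**Figure D4:**
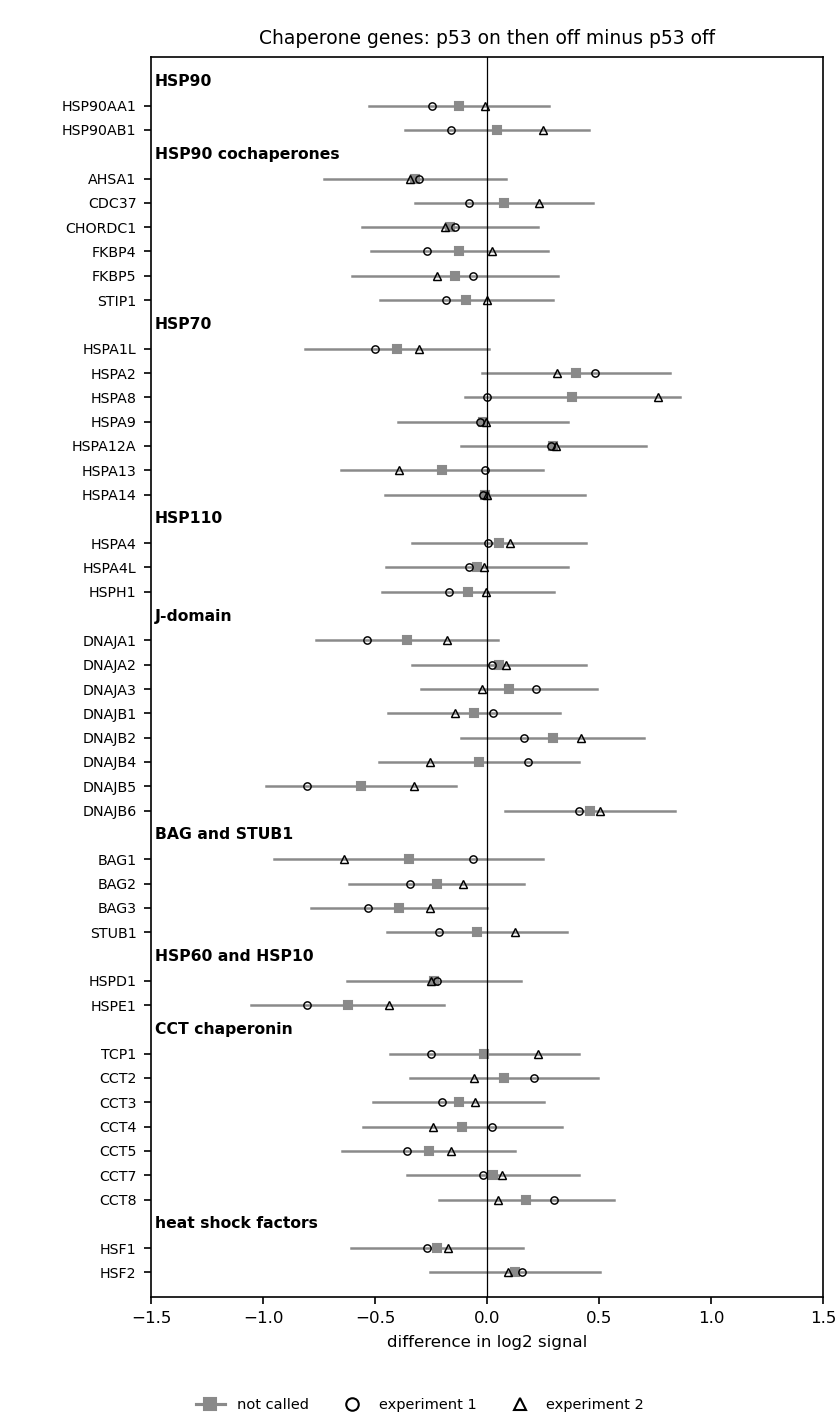
Differences in log2 signal (x axis), p53 on then off minus p53 off, for the 41 chaperone genes by family. Squares are limma estimates with bars for their 95% intervals (n = 2 arrays per group), circles and triangles the differences within experiments 1 and 2. All are grey because none passed the test, and the estimates run from -0.62 (HSPE1) to 0.46 (DNAJB6).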

How the data were processed

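Total RNA from HT29-tsp53 cells was labelled with a whole-transcript sense kit and hybridised to 6 Affymetrix Human Gene 1.0 ST arrays, per the labels' protocols. The authors deposited 1 log2 signal per array for each exon-level probe set, a unit judged from the range of the values. Their program, background step and normalization are not given in the sources read. Of 257430 probe sets, 224320 with 1 gene symbol were used, 10159 had several and 22951 had none listed. Gene values were medians over probe sets on each array, and a filter that dropped the lowest 25% of genes by mean signal (under 3.62) left 14026 of 18701. No further scaling was applied, and arrays give no read depth, so their number limits the precision.

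Groups followed the sample titles. The fits used limma 3.58.1 (R 4.3.3) over all 6 arrays, with the 3 groups as a factor, the experiment number as a replicate block and Benjamini-Hochberg adjustment over all genes tested. Errors are limma standard errors, and intervals are limma's 95% intervals. Both rest on 2 residual degrees of freedom per gene and 6.70 prior degrees of freedom shared over all genes tested. They are therefore not a gene's own replicate spread alone. The pairing comes from the experiment number in the labels' descriptions. Deviations of same-numbered arrays from their group means correlated at 0.496 (p53 on and p53 off), 0.63 (p53 on then off and p53 on) and 0.551 (p53 on then off and p53 off). An exact unpaired permutation test of 2 arrays against 2, which ignores the experiment number, cannot go below 0.333. The code was tested on simulated data.

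The 41 genes, the other pathway lists and the tests were chosen with earlier results of these data known. All 41 genes are named. Values per array were given for those past the test in any comparison and for HSP90AA1, HSP90AB1, HSPA8, HSF1 and HSF2. BAG1, outside this rule, is given with values per array under the other observations. Of the other pathway lists, the 3 largest rises and falls past the test in each comparison were named. PTGES3, SUGT1 and PFDN6 were named besides, after their values were seen. Alternatives were a fit without the block, no low-signal filter, the mean of probe sets, quantile normalization, median centring, only the groups compared, an intensity trend, and leaving out each array.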

Additional observations from a re-analysis of the deposited data

How the results depend on the processing

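None of the genes called with the replicate block changed sign under any alternative, and 0 genes passed between p53 on then off and p53 off in every one. With the replicate block 9 genes were called for p53 on against p53 off (1 higher, 8 lower) and 8 for p53 on then off against p53 on (6 higher, 2 lower), and without it, in an unpaired fit, 1 (0 higher, 1 lower) and 0. Without the low-signal filter they were 5 (0 higher, 5 lower) and 4 (3 higher, 1 lower). Over all 18701 genes, calls in that fit were 427 higher and 466 lower in the first comparison and 205 and 206 in the second. With an intensity trend 13 chaperone genes were called in each (11 of the second higher). Calls over all genes were then 942 higher and 1177 lower in the first and 834 and 719 in the second. With the mean of probe sets the first comparison had 16 (3 higher, 13 lower) and the second 10. In the first, HSPE1 was lost and STIP1, HSPA1L, DNAJA1, DNAJA3, DNAJB2, DNAJB5, DNAJB6 and BAG2 were gained. In the second, HSP90AA1 and DNAJB6 were lost and AHSA1, FKBP5, HSPA8 and DNAJA3 were gained. Calls over all genes also rose, to 1182 higher and 1474 lower in the first and 1116 higher and 849 lower in the second. Without the filter HSP90AA1 was lost in the second comparison too, and DNAJB6 was lost there with median centring. Medians over the list were -0.212 (quantile) and -0.162 (median-centred) against -0.19 for the first comparison, and -0.135 (quantile) against -0.06 for the third. The cause of these changes was not tested. Leaving out 1 array at a time gave 3 to 9 calls for the first comparison (0 to 1 higher, 3 to 8 lower, list median -0.259 to -0.133) and 3 to 9 for the second (2 to 7 higher, 0 to 2 lower, list median 0.044 to 0.171), and 0 to 0 calls with a list median of -0.151 to -0.013 for the third. With 2 residual degrees of freedom, probe signals from a program not given, and temperature tied to p53 activity, these arrays limit what small differences can show.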

Other observations

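KRT19, a keratin of the colon epithelium and one of the markers used to check the cell type, had log2 signals of 11.09 and 9.89 in p53 on cells, against 9.75 and 8.64 in p53 off cells. It rose by 1.29 ± 0.17 (adjusted p = 0.00322 from limma with the replicate block, 0.317 without it). It was also higher in p53 on then off cells, at 10.77 and 9.81, than in p53 off cells, by 1.09 ± 0.17 (adjusted p = 0.0413 from limma with the block, 0.963 without it). BAG1, a nucleotide exchange factor of HSP70, had signals of 6.47 and 5.54 in p53 on cells, against 5.68 and 5.97 in p53 off cells, so that the experiments differed in direction.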
